A study of Mus musculus with 15 samples.

Results

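The integrated stress response genes were described in NIH3T3 cells in which a protein domain was unfolded on command. They are the transcription factor gene Atf4 and 9 genes known as its stress targets or relatives, namely Atf3, Atf5, Ddit3, Ddit4, Trib3, Chac1, Asns, Ppp1r15a and Vldlr. They were taken by gene symbol, 10 of the 20207 genes in each table. Ppp1r15a is listed under its older symbol Myd116. NIH3T3 is a mouse embryonic fibroblast line. All cells stably expressed DD-sfGFP, in which a destabilizing domain (DD), a mutant form of the FKBP protein, is joined to superfolder GFP, and had been sorted for high GFP, so they are a sorted pool of transgenic cells rather than normal fibroblasts. The ligand Shield-1 (S1) keeps the DD folded. In the control group (n = 5, time 0 and no stress by the labels) S1 stayed in place. In the other groups a purified FKBP protein that binds S1 was added to the medium, the DD unfolded, and cells were harvested 45 min (n = 3), 135 min (n = 3) or 405 min (n = 4) later. Poly(A) RNA was sequenced. The comparisons address whether mRNA levels of these genes changed as the unfolded DD appeared. The samples are labelled as replicates, but nothing says whether they came from separate cultures, so p-values measure the spread between these samples only.

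The integrated stress response is the shared output of kinases that each sense a different stress and phosphorylate the translation initiation factor eIF2. General protein synthesis then falls, while the mRNA of Atf4 is translated more, so that much of the regulation of ATF4 takes place on protein and not on mRNA level. ATF4 is a bZIP factor that pairs with C/EBP and AP-1 family proteins and switches on genes of amino acid supply, redox balance and, when stress lasts, cell death. Its targets include genes that dampen the response, such as Ppp1r15a (GADD34), which directs a phosphatase to eIF2, and Trib3, a pseudokinase that inhibits ATF4.

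ATF4 dimers bind C/EBP-ATF response elements. A script searched for the core TGATGNAA on both strands of 300-base RefSeq promoters (250 bases before to 50 after the start site, GRCm38.p6). All 10 genes had at least 1 of these promoters, 12 in all. The core was found in 5 of these 12 promoters, each of a different gene, and in 3.97% of all 32851 promoters. The genes were chosen as Atf4 and its known targets or relatives, so this share is no independent support for that choice. The capitals mark the match as it reads on the gene's own strand (TTGCATCA and TTACATCA are the core on the other strand). A match is a description and not a site shown to be bound.
Atf3: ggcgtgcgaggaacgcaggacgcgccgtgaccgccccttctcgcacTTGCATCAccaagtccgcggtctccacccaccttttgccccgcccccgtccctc
Chac1: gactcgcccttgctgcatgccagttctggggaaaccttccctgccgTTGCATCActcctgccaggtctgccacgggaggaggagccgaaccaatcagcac
Vldlr: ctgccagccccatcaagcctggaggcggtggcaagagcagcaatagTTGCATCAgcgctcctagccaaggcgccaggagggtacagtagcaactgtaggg
Asns: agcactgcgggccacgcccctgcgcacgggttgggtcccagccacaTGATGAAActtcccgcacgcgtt
Trib3: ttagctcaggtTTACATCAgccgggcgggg

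The first base of the match lay at -110 from the start site in Atf3 (chr1:191183390-191183489, minus strand), at -193 in Chac1 (chr2:119351003-119351102, plus strand) and at -200 in 1 of the 2 promoters of Vldlr (chr19:27216774-27216873, plus strand). In Asns it lay at -23 (chr6:7693210-7693278, minus strand), and in Trib3 it lay in the transcribed part, at 15 (chr2:152344028-152344057, minus strand). No promoter of Atf4, Atf5, Ddit3, Ddit4 or Ppp1r15a held the core in this window. The cAMP response element TGACGTCA, which CREB and ATF proteins bind, does not overlap any match above. It stood in 1.79% of all promoters and in 1 of the 12 promoters of the 10 genes, that of Ppp1r15a, at -12 (chr7:45526269-45526326, minus strand).
Ppp1r15a: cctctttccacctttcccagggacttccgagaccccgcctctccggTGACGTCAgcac

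The longer ER stress response element, which factors of endoplasmic reticulum (ER) stress bind, stood in 0.119% of all promoters and in no promoter of the 10 genes.

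Total counts ranged from 6652539 (control replicate 3) to 30258404 per sample. The libraries fell into 2 sets that the labels do not name. They were separated by the slope of log2 CPM (counts scaled to library size; prior count 2, each gene centred over the samples) on exonic GC content, with a boundary at 0.2 per 10 points of GC. Library set 2 held control replicate 2, 45 min replicate 3 and 405 min replicates 1, 2 and 4 (slopes of 0.311 to 0.726), and set 1 held the other 10 samples, with all 3 of 135 min (slopes of -0.711 to 0.031). Time and library set therefore overlap: 3 of 4 samples at 405 min but 1 of 5 controls belonged to set 2. Values with the set as a covariate are given below for part of the genes. Other sizes are given without it and can differ with it in either direction. The log2 fold change at 405 min was 2.75 without and 2.08 with it for Sqstm1, and -0.86 without and -1.08 with it for Vldlr. The summed CPM of 10 fibroblast markers was 12206 to 18668 per sample, lowest at 405 min. Lum, 1 of the 10, was low throughout (0.122 to 3.66 CPM) and under 1 CPM in every 405-min sample (0.334 to 0.495 CPM). The other fibroblast markers had at least 56.1 CPM in every sample. Summed markers of epithelium, leukocytes, endothelium and muscle never passed 5.19 CPM.

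In control cells the 10 genes spanned almost 3 orders of magnitude. The deposited RPKM, which are per gene length, were rescaled to the same total in every sample (TPM) for this comparison. Atf4 was the most abundant with 438 TPM ± 51.2 (SD, n = 5). Asns followed with 101 ± 38.9 TPM, Ddit3 with 63.9 ± 31.2, Atf5 with 49.5 ± 21.7 and Ddit4 with 37.1 ± 11.7. Chac1 had 11.4 ± 2.58 TPM, Ppp1r15a 7.11 ± 4.41, Trib3 3.29 ± 3.46, Vldlr 0.729 ± 0.38 and Atf3 0.508 ± 0.615. The ranges of the 5 control samples did not overlap between Atf4 and Asns, nor between Ddit4 and Chac1. All other neighbours in this order overlapped, so their order is not fixed beyond the spread.

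**Figure D1:**
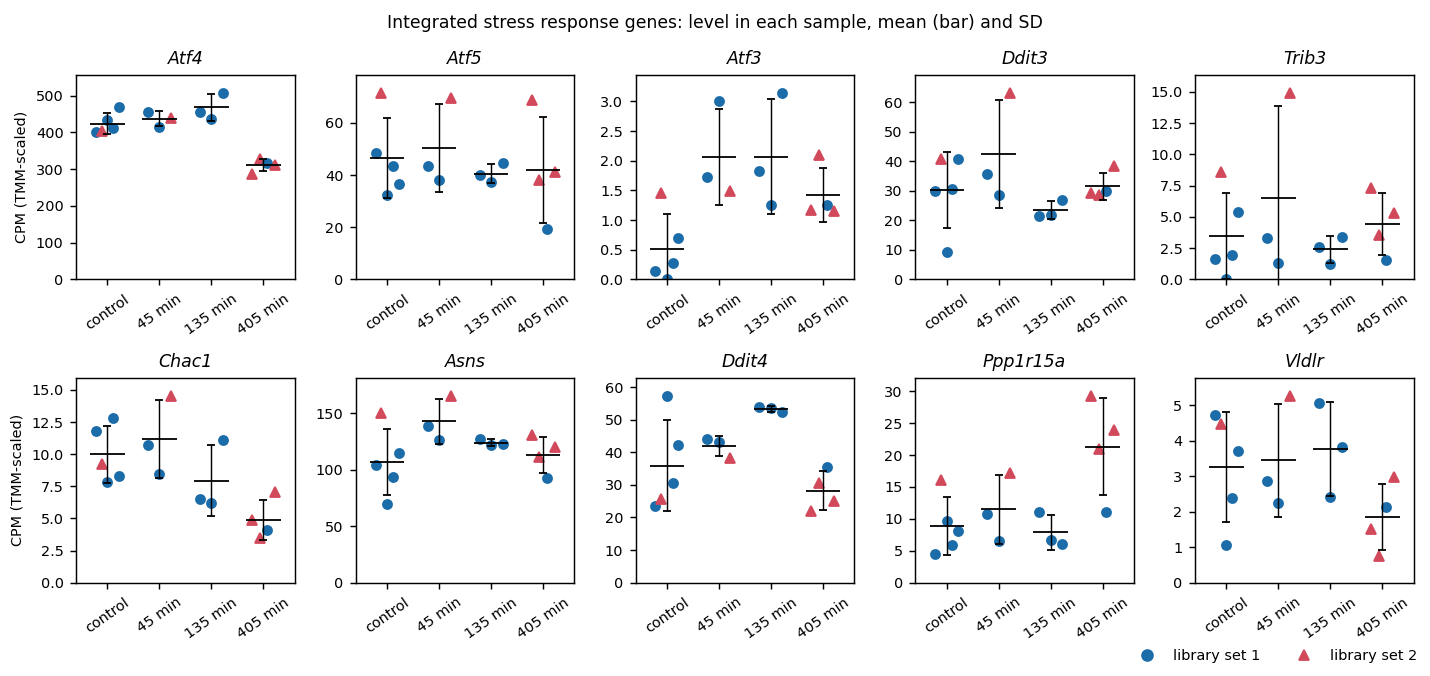
CPM (TMM-scaled, linear axis from 0) of the 10 genes in each of the 15 samples by group; horizontal bars are group means, error bars are SD, circles are library set 1 and triangles library set 2. Atf4 at 405 min (287 to 328 CPM) sits below all other samples, and for Ppp1r15a every triangle (16.1 to 29.2 CPM) sits above every circle (4.44 to 11 CPM).

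Across the whole set, no gene was past the threshold at 45 or 135 min, and 3 were at 405 min: Atf4 and Chac1 were lower and Ppp1r15a was higher. edgeR's quasi-likelihood test was used with Benjamini-Hochberg adjustment over the 10276 genes that had at least 1 count in every sample, and a gene was called at an adjusted p below 0.05. Of the 10 genes, 8 could be tested; Atf3 and Trib3 had 0 counts in control replicate 3. At 45 min 0 of 8 were called, against 0% of all tested genes in either direction. At 135 min 0 of 8 were called, against 0.564% called higher and 0.895% called lower. At 405 min 1 of 8 was called higher and 2 of 8 lower, against 9.99% and 13.4% of all tested genes, so with 8 genes the counts are near what the background share gives. With the library set as a covariate 0 were higher and 3 lower (Atf4, Atf5 and Chac1), against 6.17% and 6.87% of all tested genes. With an offset for each sample's GC trend 0 were higher and the same 3 lower, against 11.4% and 15.9%. DESeq2 and edgeR on the genes kept by filterByExpr called 0 at 45 and 135 min as well. An unadjusted p under 0.05 in edgeR was reached by 1 of 8 genes at 45 min (Asns) and 1 of 8 at 135 min (Ddit4). The median log2 fold change of the 8 was 0.20 at 45 min, -0.01 at 135 min and -0.25 at 405 min, beside 0.02, -0.06 and 0.00 over all tested genes. All 3 comparisons share the 5 control samples.

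Atf4 (chr15:80085614-80087971, plus strand; gene coordinates here and below are mm9) encodes the central factor of the response. Its mRNA had 402, 404, 434, 412 and 468 CPM in control replicates 1 to 5. It had 457, 416 and 440 CPM at 45 min and 457, 438 and 507 CPM at 135 min. At 405 min it had 287, 328, 316 and 311 CPM. Each 405-min sample was below each of the other 11 samples, a pattern seen in 3.69% of all tested genes, and the groups at 45 and 135 min overlapped control. The mean fell from 424 ± 27.7 CPM (SD, n = 5) in control to 311 ± 17.1 (n = 4), a log2 fold change of -0.45 (SE 0.10, adjusted p = 0.00907 in edgeR), or 0.733 times the control level. Against 135 min the log2 fold change was -0.59 (SE 0.12, adjusted p = 0.0121 in edgeR). Atf4 was the only 1 of the 8 called in a joint test over the 3 times (adjusted p = 0.0138 in edgeR), which called 9.69% of all genes.

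Levels of Atf4 were also compared within the library sets. In set 1 the single 405-min sample had 316 CPM against 402 to 468 CPM in 4 controls, and in set 2 the 3 samples at 405 min had 287 to 328 CPM against 404 CPM in the single control. The log2 fold change was -0.45 (adjusted p = 0.203 in edgeR) within set 1 and -0.40 (adjusted p = 0.38) within set 2, and with the set as a covariate -0.43 (SE 0.10, adjusted p = 0.0114). An offset for the GC trend of each sample moved it to -0.87 (SE 0.18, adjusted p = 0.00344 in edgeR). The call was lost with only control and 405-min samples in the fit (log2 fold change -0.45, adjusted p = 0.0553 in edgeR). No single sample decided it: leaving out each of the 15 in turn gave -0.48 to -0.41. The call against 135 min was lost without any 1 of the 3 samples at 135 min (adjusted p of 0.0612 to 0.0726 in edgeR) or without 405 min replicate 4 (adjusted p = 0.0513).

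The 3 other transcription factor genes were not called. Atf5 (chr7:52067628-52071942, minus strand) encodes a bZIP factor that, like ATF4, is translated more when eIF2 is phosphorylated. It had 48.6, 71.4, 32.4, 43.3 and 36.6 CPM in control and 68.6, 38.2, 19.3 and 41 CPM at 405 min, and the highest sample of each of these groups belonged to library set 2. The log2 fold change at 405 min was -0.15 (SE 0.31, adjusted p = 0.718 in edgeR) without and -0.74 (SE 0.22, adjusted p = 0.0329) with the set as a covariate, and -0.85 (SE 0.16, adjusted p = 0.00152) with the GC offset. Within set 1 the 405-min sample (19.3 CPM) was below all 4 controls (32.4 to 48.6 CPM), and within set 2 the 3 samples at 405 min (38.2 to 68.6 CPM) were below the control (71.4 CPM). Samples at 45 min (38.2 to 69.7 CPM) and 135 min (37.2 to 44.6 CPM) overlapped control. Exons of Atf5 overlap those of Nup62 and Il4i1 on the other strand, and whether counting used strand is not given in the sources used here.

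Atf3 (chr1:192994176-193007212, minus strand), an early stress-induced bZIP factor, had very low levels. It had 0.146, 1.45, 0, 0.272 and 0.706 CPM in control, where the 0 of replicate 3 allows up to 0.523 CPM (3 counts, counting error only). It had 1.73, 3 and 1.49 CPM at 45 min, 1.83, 1.25 and 3.14 CPM at 135 min and 1.17, 2.1, 1.26 and 1.15 CPM at 405 min. All 45-min samples were above all controls, as in 0.467% of the tested genes, which do not include Atf3, while the highest control, replicate 2, lay inside the ranges at 135 and 405 min. In the fit on the 12261 genes kept by filterByExpr the log2 fold change was 1.87 (SE 0.72, adjusted p = 0.738 in edgeR) at 45 min, 1.90 (SE 0.71, adjusted p = 0.323) at 135 min and 1.33 (SE 0.68, adjusted p = 0.166) at 405 min. These values rest on 0 to 29 counts per control sample and 13 to 86 counts per sample after S1 withdrawal. Within library set 2 alone, where control replicate 2 is the only control and replicate 3 the only 45-min sample, the log2 fold change was 0.04 at 45 min and 0.03 at 405 min. A filterByExpr fit with the set as a covariate, added after seeing the data, gave 2.01 (SE 0.71, adjusted p = 0.526 in edgeR) at 45 min. The same fit gave 2.20 (SE 0.73, adjusted p = 0.0861 in edgeR) at 135 min and 1.07 (SE 0.69, adjusted p = 0.383) at 405 min.

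Ddit3 (chr10:126727849-126733344, plus strand) encodes CHOP, a C/EBP-like factor of prolonged ER stress and the usual marker of it. It had 29.9, 40.8, 9.24, 30.5 and 40.9 CPM in control, 35.8, 28.6 and 63 CPM at 45 min, 21.5, 21.7 and 26.9 CPM at 135 min and 29.1, 28.6, 30 and 38.4 CPM at 405 min. Every group overlapped control, at 135 min through control replicate 3 alone (9.24 CPM, 53 counts), the sample with the fewest total counts. The log2 fold change at 135 min was -0.38 (SE 0.37, adjusted p = 0.736 in edgeR). It was -0.60 (SE 0.24, adjusted p = 0.327 in edgeR) without that sample and -0.26 (SE 0.32, adjusted p = 0.605) with the library set as a covariate. Each 405-min sample was above each 135-min sample, which 19.2% of all tested genes also showed, and that difference was not called (log2 fold change 0.43, SE 0.38, adjusted p = 0.458 in edgeR). At 405 min against control the log2 fold change was 0.05 (SE 0.33, adjusted p = 0.91 in edgeR). Its exons overlap those of Mars on the other strand.

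**Figure D2:**
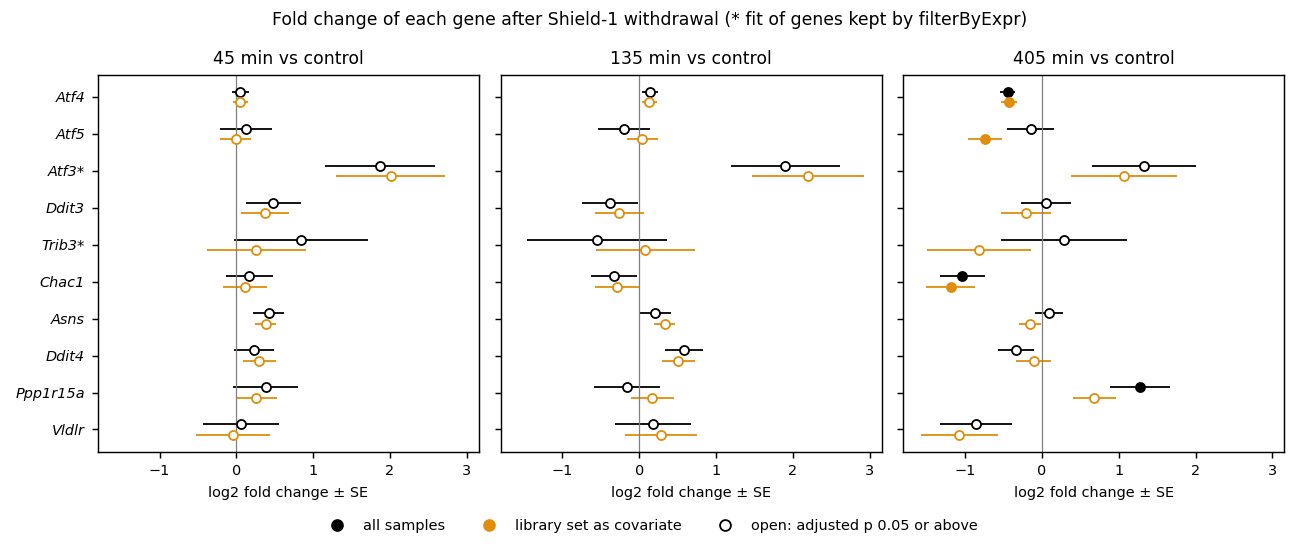
Log2 fold change against control (points) with SE (bars) of the 10 genes at 45, 135 and 405 min, from all samples (black) and with the library set as a covariate (orange); filled points have an adjusted p below 0.05, and Atf3 and Trib3 come from the fit of genes kept by filterByExpr. Filled points appear at 405 min only: Atf4 and Chac1 in both fits, Ppp1r15a without and Atf5 with the covariate.

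Among the effector genes Chac1 changed, and Asns, Ddit4, Trib3 and Vldlr were not called. Chac1 (chr2:119176978-119180060, plus strand) encodes an enzyme that breaks down glutathione and is a sensitive reporter of ATF4. It had 11.8, 9.22, 7.84, 12.8 and 8.26 CPM in control, 10.7, 8.46 and 14.5 CPM at 45 min and 6.53, 6.16 and 11.1 CPM at 135 min. At 405 min it had 4.84, 3.48, 4.06 and 7.09 CPM, all below all controls, as for 6.43% of the tested genes. The mean fell from 9.99 ± 2.21 CPM (SD, n = 5) to 4.87 ± 1.58 (n = 4), a log2 fold change of -1.04 (SE 0.29, adjusted p = 0.0214 in edgeR) or 0.487 times the control level. With the library set as a covariate it was -1.19 (SE 0.32, adjusted p = 0.0221 in edgeR), and with the GC offset -1.70 (SE 0.31, adjusted p = 0.00141). The call was lost with only control and 405-min samples in the fit (-1.03, adjusted p = 0.0568 in edgeR), without control replicate 4 (-0.93, adjusted p = 0.053), without 405 min replicate 1 (-1.03, adjusted p = 0.0631) and without 405 min replicate 2 (-0.90, adjusted p = 0.0714).

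Asns (chr6:7625171-7643182, minus strand), the asparagine synthetase gene and a classical amino acid response target, had 104, 150, 69.9, 93.9 and 115 CPM in control. It had 139, 126 and 165 CPM at 45 min, 127, 122 and 123 CPM at 135 min and 131, 111, 92.3 and 120 CPM at 405 min. All groups overlapped the control range, at 45 and 135 min through control replicate 2 alone (150 CPM, library set 2). Within set 1 the samples at 45 min (126 and 139 CPM) and 135 min (122 to 127 CPM) were above all controls (69.9 to 115 CPM). Within set 2 the single 45-min sample had 165 CPM against 150 CPM in the single control. The share of all tested genes with this pattern is not given. Its log2 fold change was 0.42 (SE 0.20, adjusted p = 0.698 in edgeR) at 45 min and 0.21 (SE 0.20, adjusted p = 0.726) at 135 min. At 405 min it was 0.09 (SE 0.18, adjusted p = 0.732 in edgeR). With the library set as a covariate the log2 fold change was 0.38 (SE 0.14, adjusted p = 0.488 in edgeR) at 45 min. The same fit gave 0.33 (SE 0.14, adjusted p = 0.145 in edgeR) at 135 min and -0.16 (SE 0.14, adjusted p = 0.52) at 405 min.

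Ddit4 (chr10:59412423-59414518, minus strand) encodes REDD1, an inhibitor of the growth kinase mTORC1. It had 23.6, 25.7, 57.2, 30.5 and 42.3 CPM in control and 44.1, 43.2 and 38.3 CPM at 45 min. At 135 min it had 53.8, 53.7 and 52.3 CPM, and at 405 min 22, 30.5, 35.4 and 25 CPM. The 135-min samples were within the control range through control replicate 3 alone, the sample with the fewest total counts (6652539) and the lowest GC slope (-0.711). They were above all 405-min samples, a pattern seen in 17.6% of all tested genes. The log2 fold change at 135 min was 0.58 (SE 0.25, adjusted p = 0.375 in edgeR). It was 0.46 to 0.80 when each sample was left out in turn, highest without control replicate 3 (SE 0.21, adjusted p = 0.0911 in edgeR), and never called. At 405 min the log2 fold change was -0.34 (SE 0.24, adjusted p = 0.279 in edgeR). From 135 to 405 min it was -0.92 (SE 0.27, adjusted p = 0.0586 in edgeR). That last difference was called by DESeq2 (-0.93, adjusted p = 0.0147) and by edgeR on those 2 groups alone (-0.95, adjusted p = 0.0108), and it was -0.62 (adjusted p = 0.242 in edgeR) with the library set as a covariate.

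Trib3 (chr2:152163161-152169796, minus strand) had 1.6, 8.57, 0, 1.97 and 5.38 CPM in control, 3.29, 1.29 and 14.9 CPM at 45 min, 2.62, 1.25 and 3.39 CPM at 135 min and 7.33, 3.58, 1.55 and 5.28 CPM at 405 min. The highest sample at 0, 45 and 405 min belonged to library set 2 each time, and all groups overlapped. In the filterByExpr fit its log2 fold change at 405 min was 0.28 (SE 0.82, adjusted p = 0.822 in edgeR), and with the set as a covariate -0.82 (SE 0.68, adjusted p = 0.51). Vldlr (chr19:27291510-27328721, plus strand), a lipoprotein receptor gene, had 4.73, 4.46, 1.05, 2.38 and 3.7 CPM in control and 1.52, 0.763, 2.13 and 2.97 CPM at 405 min, with 2.25 to 5.25 CPM at 45 min and 2.4 to 5.06 CPM at 135 min in between. The control and 405-min ranges overlapped, and the log2 fold change was -0.86 (SE 0.47, adjusted p = 0.176 in edgeR).

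Ppp1r15a (chr7:52778290-52781583, minus strand) was the 1 gene of the 10 called higher. It had 4.44, 16.1, 9.59, 5.91 and 8.1 CPM in control, 10.7, 6.54 and 17.2 CPM at 45 min, 11, 6.74 and 5.98 CPM at 135 min and 29.2, 21, 11 and 24 CPM at 405 min. The mean was 8.83 ± 4.53 CPM (SD, n = 5) in control and 21.3 ± 7.64 (n = 4) at 405 min, a log2 fold change of 1.27 (SE 0.39, adjusted p = 0.0318 in edgeR). The 405-min range overlapped control, and the levels followed the library sets: all 5 samples of set 2 (16.1 to 29.2 CPM) were above all 10 samples of set 1 (4.44 to 11 CPM), as in 15.6% of the tested genes. With the set as a covariate the log2 fold change was 0.68 (SE 0.28, adjusted p = 0.128 in edgeR). Set 1 alone gave 0.66 (SE 0.50) and set 2 alone gave 0.60 (SE 0.27), neither of them called. With the GC offset it was 0.76 (SE 0.29, adjusted p = 0.0615 in edgeR). The call was also lost without control replicate 1, 4 or 5 and without 405 min replicate 1, 2 or 4, with adjusted p of 0.0583 to 0.109 in edgeR and log2 fold changes of 1.08 to 1.28. Exons of Ppp1r15a overlap those of Tulp2 on the other strand.

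**Figure D3:**
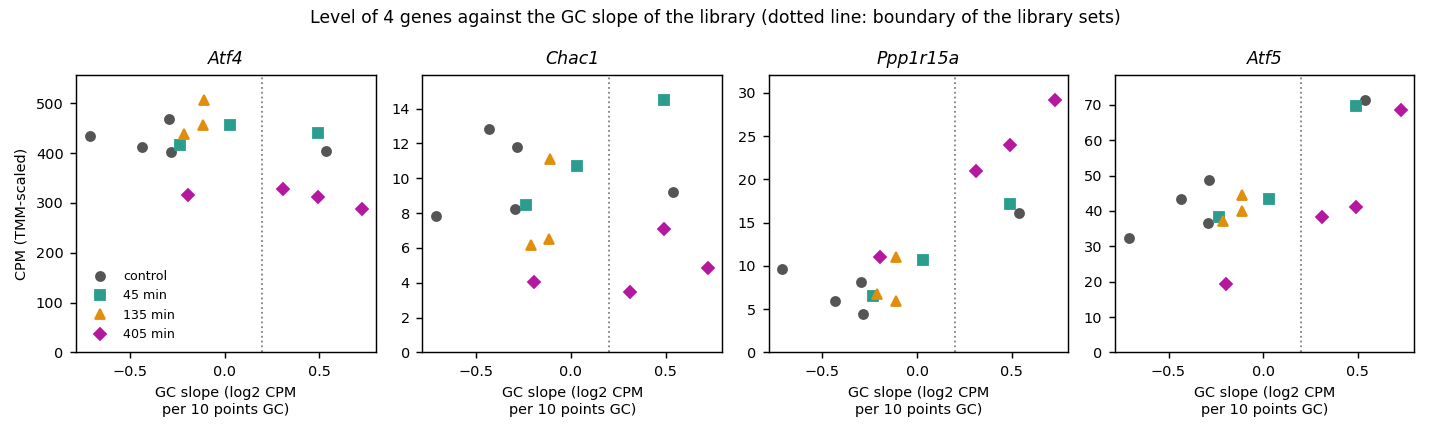
CPM (TMM-scaled) of Atf4, Chac1, Ppp1r15a and Atf5 in each sample against the slope of that library's log2 CPM on exonic GC content; the dotted line at 0.2 separates library set 1 (left) from set 2 (right), and symbols are the groups. The 405-min samples are lowest for Atf4 on both sides of the line, while Ppp1r15a is higher on the right in every group found there.

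Between 135 and 405 min 0 of 8 genes were called higher and 1 of 8 (Atf4) lower, against 2.24% and 2.82% of all tested genes. DESeq2 called 1 higher (Ppp1r15a) and 2 lower (Atf4 and Ddit4), against 8.23% and 7% of the genes it tested, and edgeR with the GC offset called 0 higher and 3 lower (Atf4, Atf5 and Chac1), against 4.16% and 4.45%. Ppp1r15a had a log2 fold change of 1.43 (SE 0.46, adjusted p = 0.0787 in edgeR) in this comparison, called by DESeq2 (1.42, adjusted p = 0.019) and 0.51 (SE 0.34, adjusted p = 0.47 in edgeR) with the library set as a covariate. Chac1 had -0.71 (SE 0.32, adjusted p = 0.167 in edgeR) and, with the GC offset, -1.26 (SE 0.33, adjusted p = 0.0306). Atf5 had 0.04 (SE 0.35, adjusted p = 0.944 in edgeR) and, with the GC offset, -0.68 (SE 0.17, adjusted p = 0.0266). Between 45 and 135 min 0 of 8 were called in edgeR, against 0.185% called higher and 0.243% called lower. In that comparison 0 of 8 had an unadjusted p under 0.05 in edgeR, and DESeq2 called 0 as well.

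The genes around ATF4 were read from 5 lists, which were chosen with earlier results of these data known. A count above the share of all tested genes is therefore no independent support for these lists. Their counts without a covariate or offset stand beside the shares of all tested genes given above, 0.564% called higher and 0.895% lower at 135 min and 9.99% higher and 13.4% lower at 405 min. The machinery of eIF2 (16 genes for the kinases, the subunits of eIF2 and eIF2B and phosphatase partners, all tested) had 0 genes called at 45 and 135 min. At 405 min 2 rose and 2 fell, near the share over all tested genes, with a median log2 fold change of 0.10. Eif2b4, a subunit of the exchange factor that the response inhibits, rose from 8.92 ± 6.25 CPM (SD, n = 5) to 34.7 ± 8.96 (n = 4; log2 fold change 1.93, SE 0.53, adjusted p = 0.0212 in edgeR). Eif2ak1, the heme-regulated kinase HRI, rose by 0.78 on the log2 scale (SE 0.26, adjusted p = 0.0395 in edgeR). Eif2s2, the beta subunit of eIF2, fell by 1.12 on the log2 scale (SE 0.32, adjusted p = 0.0242 in edgeR) and Ppp1cc, a catalytic subunit of the phosphatase, fell by 0.36 (SE 0.10, adjusted p = 0.0265). Of these 4, Eif2b4 was also called with the library set as a covariate (1.54, SE 0.46, adjusted p = 0.0354 in edgeR), while Eif2ak1, Eif2s2 and Ppp1cc were not.

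Other bZIP factors, some of them ATF4 partners, made up the next list. Of 17 listed genes 15 were tested, 2 fell and 0 rose at 135 min, and 5 fell and 0 rose at 405 min, against shares of 0.895% and 13.4% lower over all tested genes, and with a median log2 fold change of -0.20 at 405 min. Cebpd, a C/EBP factor gene, had 123 ± 58.3 CPM (SD, n = 5) in control cells, 14.7 ± 1.49 (n = 3) at 135 min and 24.6 ± 3.51 (n = 4) at 405 min. Its log2 fold change was -3.06 (SE 0.32) at the earlier and -2.32 (SE 0.27) at the later of these times, with an adjusted p of 0.000111 in edgeR for each. Cebpb, which dimerises with ATF4, fell by 1.33 on the log2 scale at 405 min (SE 0.28, adjusted p = 0.00542 in edgeR). Cebpg, another partner of ATF4, fell by 1.15 (SE 0.27, adjusted p = 0.00999 in edgeR), and Crebzf, which encodes an ATF/CREB-family factor, fell by 0.72 (SE 0.16, adjusted p = 0.00697). With the library set as a covariate the 4 genes named here fell and 0 rose at 405 min, against 6.87% lower and 6.17% higher over all tested genes. In the same fit 4 fell and 1 rose (Jun) at 135 min. The share of all tested genes in that fit is not given for this time. This count is therefore not read as a result about the list. With the GC offset 6 fell and 3 rose (Atf6b, Atf2 and Nfe2l2) at 405 min, against 15.9% lower and 11.4% higher over all tested genes. At 135 min 2 fell and 1 rose (Jun) with the offset. That count again has no share of all tested genes beside it and is not read as a result.

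**Figure D4:**
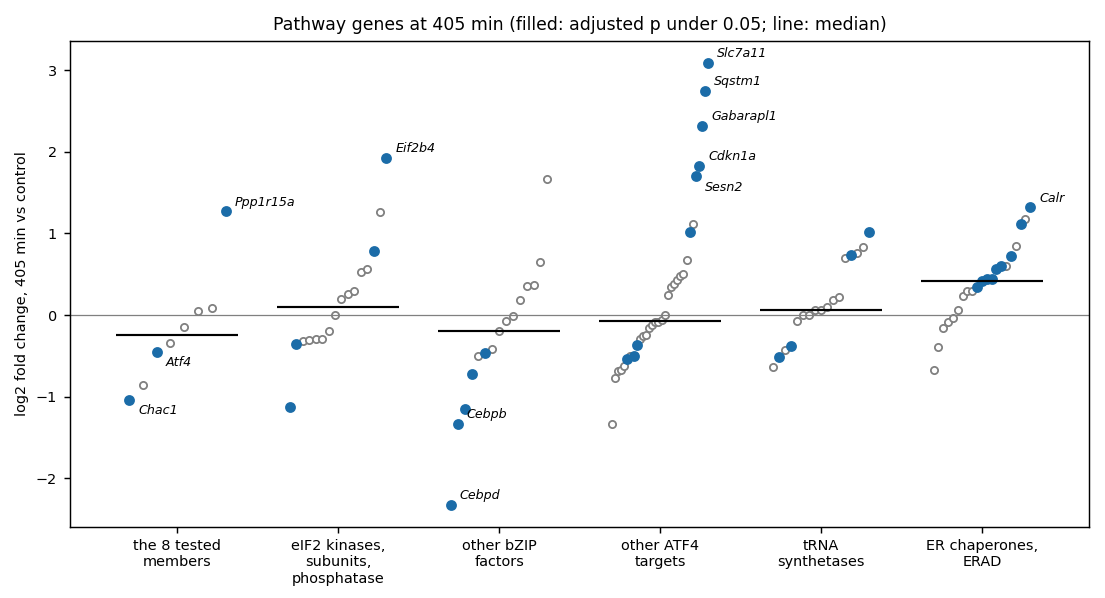
Log2 fold change at 405 min against control of each tested gene of the 8 tested integrated stress response genes and of the 5 lists (points spread by rank within a list); filled points have an adjusted p below 0.05 and lines are medians. Medians lie between -0.25 (the 8 genes) and 0.42 (ER chaperones and ER-associated degradation, ERAD), and the highest points are Slc7a11 and Sqstm1 among the other ATF4 targets.

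A further 36 genes known as ATF4 targets were listed, of which 32 were tested. At 45 min 0 were called, at 135 min 3 rose and 0 fell, and at 405 min 6 rose and 3 fell, with a median log2 fold change of -0.07 at 405 min. Over all tested genes 0.564% were called higher at 135 min, and 9.99% higher and 13.4% lower at 405 min. Those that rose at 135 min were Cdkn1a (2.29, SE 0.25, adjusted p = 0.000218 in edgeR), Slc7a11 (2.11, SE 0.50, adjusted p = 0.0478) and Jhdm1d (0.96, SE 0.19, adjusted p = 0.0195). The call of Slc7a11 at 135 min was lost with the GC offset (2.10, adjusted p = 0.0557 in edgeR). Cdkn1a encodes the cell cycle inhibitor p21 and is best known as a p53 target, Slc7a11 the cystine transporter and Jhdm1d a histone demethylase. The largest rises at 405 min were those of Slc7a11, from 7.32 ± 4.01 CPM (SD, n = 5) to 64 ± 14.1 (n = 4; log2 fold change 3.09, SE 0.48, adjusted p = 0.000847 in edgeR), and of Sqstm1, the autophagy receptor p62, from 187 ± 106 to 1253 ± 497 CPM (2.75, SE 0.40, adjusted p = 0.000467). Gabarapl1, an autophagy gene, rose by 2.32 (SE 0.42, adjusted p = 0.00225 in edgeR) and Cdkn1a by 1.83 (SE 0.24, adjusted p = 0.000247). Slc7a11 and Sqstm1 are also known targets of the oxidative stress factor NRF2. The genes that fell were Slc7a1, a cationic amino acid transporter (-0.54, SE 0.17, adjusted p = 0.0373 in edgeR), Vegfa (-0.50, SE 0.14, adjusted p = 0.0256) and Xpot, a tRNA exporter (-0.37, SE 0.10, adjusted p = 0.0245). With the library set as a covariate 5 rose and 2 fell (Herpud1 and Slc7a1) at 405 min, against 6.17% and 6.87% of all tested genes in that fit. Vegfa (-0.38, adjusted p = 0.0906 in edgeR) and Xpot (-0.33, adjusted p = 0.0563) were no longer called there. In the same fit 2 rose at 45 min (Sesn2 and Cdkn1a) and 8 rose at 135 min. The share of all tested genes in that fit is not given for these times, so these counts are not read as a result about the list. With the GC offset 6 rose and 6 fell at 405 min, against 11.4% and 15.9% of all tested genes. Xpot was again not called (-0.24, adjusted p = 0.0797 in edgeR). Between 135 and 405 min 1 rose (Sqstm1) and 1 fell (Xpot), against 2.24% and 2.82% of all tested genes. With the set as a covariate 0 rose and 6 fell, among them Sesn2, Slc7a5, Herpud1 and Cdkn1a. The share of all tested genes in that fit is again not given, so this count is not read as a result. The 4 genes not tested were Pycr1, Cbs, Fgf21 and Gdf15, of which the secreted stress signals Fgf21 and Gdf15 stayed at or under 1.39 and 3.14 CPM in every sample.

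Of the 17 cytosolic aminoacyl-tRNA synthetase genes, many of which ATF4 can raise, 0 were called at 45 and 135 min. At 405 min 2 rose and 2 fell, near the shares of 9.99% and 13.4% over all tested genes, with a median log2 fold change of 0.06. Qars rose by 1.02 (SE 0.21, adjusted p = 0.00455 in edgeR) and Aars by 0.74 (SE 0.22, adjusted p = 0.0283), while Tars fell by 0.51 (SE 0.12, adjusted p = 0.0126) and Eprs fell by 0.38 (SE 0.13, adjusted p = 0.0413). Qars and Tars were also called with the library set as a covariate, and Aars and Eprs were not.

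Chaperones and degradation factors of the ER, mostly of the other arms of ER stress, were read as a neighbouring pathway. This list shares Herpud1 with the other ATF4 targets and Dnajc3 with the eIF2 machinery, and both genes are counted in each list. Of 22 genes 21 were tested, 0 were called at 45 and 135 min, and 9 rose and 0 fell at 405 min, against 9.99% and 13.4% of all tested genes, with a median log2 fold change of 0.42. Calr (1.32, SE 0.41, adjusted p = 0.0343 in edgeR) and Hyou1 (1.12, SE 0.29, adjusted p = 0.0159) rose most, followed by Creld2 (0.72, SE 0.19, adjusted p = 0.0159) and Sel1l (0.60, SE 0.19, adjusted p = 0.0334). With the library set as a covariate 6 rose and 1 fell (Herpud1), against 6.17% and 6.87% of all tested genes, and with the GC offset 11 rose and 1 fell, against 11.4% and 15.9%. Hyou1 and Calr had log2 fold changes of 0.56 and 0.62 with the covariate and were called. Creld2 (0.55, adjusted p = 0.058 in edgeR) and Sel1l (0.33, adjusted p = 0.142) were not called with the covariate, and Creld2 was not called with the GC offset (0.26, adjusted p = 0.307).

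The genes whose pattern was most like that of Atf4 were sought among 8012 tested genes with a mean of at least 10 CPM, by Pearson's r of log2 CPM over the 15 samples. They were Cdr2 (r = 0.94), Cask (0.93), Cnn3 (0.93), Cdh2 (0.92) and Tfrc (0.92), and with the means of the library sets removed r was 0.89 to 0.91. Their log2 fold changes at 405 min lay between -0.79 (Cdr2) and -0.42 (Cdh2), which the choice by likeness to Atf4 over the same samples already implies. These correlations are descriptions over samples that share the groups and library sets. None of the 5 is on the lists above.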

How the data were processed

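mRNA-seq was read from 15 tables of 20207 genes, grouped by the sample titles. Per the labels and the study's methods, the authors aligned reads to mm9, quantified them against RefSeq genes on DNAnexus and removed genes with no counts before edgeR; the aligner is not given in the sources used here. The deposited read counts are expected counts (8.7% to 15.6% of genes per sample held fractions) and were rounded to whole numbers. The authors also deposited RPKM, which were rescaled to an equal sum per sample (TPM) and used for levels between genes only. Deposited Z scores were not used. More than 1 library protocol is named in the methods, without saying which sample had which.

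Counts were tested with edgeR 4.0.16 in R 4.3.3 (TMM, glmQLFit and glmQLFTest, all 15 samples in 1 fit, no replicate block). SE is the log2 fold change over the square root of F. CPM are TMM-scaled over the tested genes. The lowest chi-square per degree of freedom over the 22 replicate pairs was 8.4, so no sample was counted as a repeat. Alternatives were DESeq2 1.42.0, other size factors and filters, subsets, a replicate block, the library set as a covariate or subset, a loess GC offset (span 0.5; GC known for 97.2% of genes) and leaving out each sample. GC came from GENCODE vM1 exons on NCBIM37, the same assembly as mm9. GC slopes were taken after centring each gene over the samples, which the written design did not state. Fits were tested on simulated data without a library set or GC effect, so that test does not cover the overlap of time and set found here.

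All 10 genes are reported. From each list up to 4 called genes per direction and comparison with the largest change are given. The genes and lists were chosen with earlier results of these data known.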

Additional observations from a re-analysis of the deposited data

Results flagged for a closer look

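In 2 of the 20 groups of 4 or 5 samples that were checked (10 genes in control and at 405 min), 1 sample stood apart from the rest by Dixon's ratio, and chance flags about 1 in 20 groups. Atf3 had 2.1 CPM in 405 min replicate 2, the highest of its group, with a gap to the next sample of 0.893 of the range, above the critical value for 4 samples. This is 44 counts in a group with 13 to 44 counts. Ddit3 had 38.4 CPM in 405 min replicate 4, with a gap of 0.856 of the range; the other 3 samples lay between 28.6 and 30 CPM. Both samples belong to library set 2, whose part in these values was not tested.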

How the results depend on the processing

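Settings were compared by 440 values, each a single gene's log2 fold change under another setting. Of these, 367 kept direction and side of the threshold, 32 lost the call, 15 gained it and 26 changed sign. At 45 and 135 min 0 genes were called in either direction under every setting run, and none of the differences called with all samples changed sign. For 405 min against control, 0 genes were called higher (in place of 1) with only the compared groups, the replicate block, the library set as a covariate, the block with the set, either set alone, the GC offset, and the block with the GC offset. The number called lower (2) was 0 with only the compared groups and within either set and 1 with the replicate block. It was 3 with the library set as a covariate, the GC offset, and the block with either of these. Leaving out each sample gave 0 to 1 higher and 1 to 2 lower. From 135 to 405 min, DESeq2 and the compared groups alone called 1 higher and 2 lower, no filter, the replicate block and set 1 alone called 0 lower, and the GC offset 3 lower; leaving out each sample gave 0 to 1 higher and 0 to 2 lower. The joint test over times called 1 gene, 0 with no filter, the replicate block or set 1 alone, 2 with the library set as a covariate, with the block and the set or with the block and the GC offset, 3 with the GC offset, and 0 to 4 when each sample was left out.

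Signs of uncalled differences changed as follows. Atf5 from 135 to 405 min was -0.77 with the library set as a covariate, -0.87 with the block as well, -1.08 within set 1, -0.68 with the GC offset and -0.69 with block and GC offset. Ddit3 at 405 min was -0.21 with the set, -0.10 with block and set, -0.36 within set 2 and -0.08 with the GC offset, and from 135 to 405 min -0.12 with block and set. Asns at 405 min was -0.16 with the set, -0.10 with block and set, -0.06 within set 1, -0.33 within set 2, -0.07 with the GC offset and -0.04 with block and GC offset. Trib3 at 405 min was -0.69 within set 2, -0.82 with the set as a covariate (a fit added after seeing the data) and -0.01 without control replicate 3. Leaving out each sample gave -0.50 to 0.08 for Atf5, -0.19 to 0.19 for Ddit3 and -0.06 to 0.24 for Asns at 405 min, and -0.30 to 0.28 for Atf5 from 135 to 405 min. The cause of these changes was not tested.

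Whether replicate numbers pair the samples was not settled. Deviations from the group means of samples with the same number had a mean r of -0.110 over 19 pairs (lowest -0.706, 4 over 0.1), and those of other pairs 0.028 over 64 (21 over 0.1). With the library set means removed as well, the mean r was 0.034 for the same number (8 of 19 pairs over 0.1) and -0.010 for other pairs (13 of 64 over 0.1). With the block, Atf4 at 405 min was -0.41 (adjusted p = 0.0665 in edgeR), Chac1 -1.14 and Ppp1r15a 1.25 (adjusted p = 0.127). All 135-min samples are in library set 1, set 1 holds 1 sample of 405 min and set 2 holds 1 control, so time and set can be told apart only in part. Atf3, Trib3 and Vldlr have the lowest control levels of the 10 genes, and their log2 fold changes at 405 min carry the largest SE (0.47 to 0.82).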
